A study of Rattus norvegicus with 61 samples.

Results

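The genes described here are 8 transcripts that mark the output neurons of the striatum. Drd1, Tac1, Pdyn and Chrm4 mark neurons of the direct pathway, and Drd2, Adora2a, Penk and Gpr6 mark neurons of the indirect pathway. They were chosen by name, and all 8 were found among the 14231 genes of the striatum table and the 14129 genes of the cerebellum table. RNA sequencing of tissue punches gave 30 striatal libraries (8 sham, 6 low, 8 medium, 8 high) and 31 cerebellar libraries (7 sham, 8 low, 8 medium, 8 high). The animals were male Sprague-Dawley rats, 21 days old on arrival, given 7 days to acclimate and grafted under the skin of the back with a polymer implant of 1.3 mg per g body weight on postnatal day 28. Exposure lasted 28 days. The implants held 4-OH-PCB52, a chlorinated biphenyl that carries a hydroxyl group, at a loading of 0% (sham), 1% (low), 5% (medium) or 10% (high), so that sham rats carried an implant without the compound. The 60 rats ordered for the study came in 4 cohorts spaced 3 weeks apart, and the labels do not tie a rat to a cohort. Not all of them were sequenced. A library is named below by its exposure group and animal number, and each library is 1 region of 1 animal. By these numbers 29 animals gave a library of both regions.

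Striatal projection neurons are inhibitory cells whose firing is set by cortical glutamate and by dopamine. Those of the direct pathway project to the output nuclei of the basal ganglia and carry the D1 dopamine receptor, which raises cyclic AMP; those of the indirect pathway reach the same nuclei through the external pallidum and subthalamic nucleus and carry the D2 receptor, which lowers it. The peptide precursors of these neurons are used as readouts of dopamine tone, since loss of dopamine is known to raise Penk and to lower Tac1 and Pdyn in the striatum.

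The deposited totals were 5850199 to 10944066 reads per striatal library and 5420458 to 10994625 per cerebellar library, so that 1 read stood for 0.0963 to 0.172 CPM in the striatum. CPM are read counts scaled to library size, with library sizes adjusted by the trimmed mean of M values (TMM). Shared projection neuron transcripts, a list of 15 genes such as the phosphatase regulator Ppp1r1b that contains none of the 8 markers, averaged 9.17 log2 CPM in the striatum and 3.93 in the cerebellum. The list mean of each striatal library was above that of each cerebellar library (lowest 5.78, highest 5.51).

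The start regions of 4 of the markers are shown because the dopamine receptors define the pathways and because Tac1 and Gpr6 belong to the pairs that varied together most closely (below). They run from 250 bases before to 50 bases after the annotated start in RefSeq, build GRCr8, which is not the build of the read alignment. Capitals mark matches on either strand to the cAMP response element TGACGTCA, its half-site TGACG, the E-box CACGTG, the GC box GGGCGG and the TATA box TATAAA.
Drd1: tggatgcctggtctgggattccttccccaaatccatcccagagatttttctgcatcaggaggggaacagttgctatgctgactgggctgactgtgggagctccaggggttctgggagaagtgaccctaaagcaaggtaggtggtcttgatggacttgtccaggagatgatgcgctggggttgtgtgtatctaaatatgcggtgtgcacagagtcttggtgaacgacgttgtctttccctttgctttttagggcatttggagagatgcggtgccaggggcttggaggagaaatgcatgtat
Tac1: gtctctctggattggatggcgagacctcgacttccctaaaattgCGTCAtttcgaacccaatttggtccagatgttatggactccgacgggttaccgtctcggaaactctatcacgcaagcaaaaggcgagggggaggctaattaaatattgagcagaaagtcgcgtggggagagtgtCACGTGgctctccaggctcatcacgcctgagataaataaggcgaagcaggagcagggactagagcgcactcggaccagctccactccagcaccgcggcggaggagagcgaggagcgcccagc
Drd2: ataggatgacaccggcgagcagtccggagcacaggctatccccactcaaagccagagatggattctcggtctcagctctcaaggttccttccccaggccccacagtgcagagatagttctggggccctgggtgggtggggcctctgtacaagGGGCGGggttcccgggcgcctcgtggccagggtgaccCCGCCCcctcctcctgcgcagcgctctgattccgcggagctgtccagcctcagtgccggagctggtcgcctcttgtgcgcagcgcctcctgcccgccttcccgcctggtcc
Gpr6: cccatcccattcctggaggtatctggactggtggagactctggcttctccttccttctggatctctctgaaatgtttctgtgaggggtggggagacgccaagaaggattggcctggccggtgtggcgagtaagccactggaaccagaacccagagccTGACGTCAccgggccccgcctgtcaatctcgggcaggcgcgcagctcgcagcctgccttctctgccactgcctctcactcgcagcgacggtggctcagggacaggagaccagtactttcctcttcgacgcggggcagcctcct
The Drd1 region lies at chr17:10546354-10546653 on the plus strand, and no match to these motifs is in its 300 bases. The Tac1 region lies at chr4:36645333-36645632 on the plus strand, with a half-site beginning 206 bases and an E-box 72 bases before the start. The Drd2 region lies at chr8:58605153-58605452 on the plus strand, with GC boxes 98 and 61 bases before the start. The Gpr6 region lies at chr20:46075202-46075501 on the minus strand, and its full cAMP response element, which contains both half-site matches, begins 93 bases before the start. Of 33469 start regions of this length in the table, 1.83% hold the full element, 21.2% the half-site, 6.42% the E-box, 33.1% the GC box and 14.2% the TATA box. Among the 6 markers with an entry, 1 (Gpr6) holds the full element, 2 the half-site, 1 the E-box, 2 the GC box and 1 (Pdyn) the TATA box. Penk and Adora2a have no entry. These matches are letters in a window and were not tested against expression.

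By the shared projection neuron list, which was chosen with earlier results of these data known, 4 striatal libraries stood apart. The mean of the shared projection neuron list was more than 1 log2 unit below the median of the region (9.54 log2 CPM) in sham 17 (5.78), low 20 (6.43), high 13 (6.49) and high 44 (8.37). The 8 markers were low in the same 4 punches. In sham 17 they stood at 1.27% (Adora2a) to 8.67% (Chrm4) of the median of the other 26 libraries, in low 20 at 3.87% (Gpr6) to 9.63% (Tac1), in high 13 at 4.85% (Drd2) to 9.39% (Pdyn), and in high 44 at 35.1% (Adora2a) to 74.6% (Pdyn). Every marker was below the lowest of the other 26 libraries in sham 17, low 20 and high 13, and 7 of 8 were so in high 44, where Pdyn at 172 CPM was above the lowest value of 150 CPM. In bulk punches, fewer cells of a type and less RNA per cell cannot be told apart.

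Transcripts of neighbouring tissue were high in these punches. All 6 listed genes of septum, pallidum and thalamus were detected, with a summed level of 497 CPM in sham 17, 1219 CPM in low 20 and 1024 CPM in high 13 against a median of 75.7 CPM over the 30 libraries. The glutamate transporter Slc17a6, typical of thalamic neurons, stood at 508 CPM in low 20 and 498 CPM in high 13 against a median of 2.60 CPM. The 6 listed genes of cortical excitatory neurons summed to 942 CPM in high 44 and 809 CPM in sham 17 against a median of 49.3 CPM, and the 6 choroid plexus genes to 12838 CPM in sham 17 against 29.4 CPM. Summed cortical levels ranged from 20.2 to 809 CPM in sham, 28.6 to 211 in low, 11.1 to 226 in medium and 15.6 to 942 in high, and no defining marker was at 0 in the 4 punches. The part of neighbouring tissue in the marker levels was not tested. Marker levels, comparisons of each loading with sham and the balance of the pathways are given with and without these 4 punches. Correlations are given without them, and the region differences of single markers with all libraries.

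The receptors that bind dopamine are encoded by Drd1 and Drd2. In the 26 other libraries, Drd1 (NCBI Gene ID 24316) had a lowest, median and highest level of 262, 357 and 471 CPM in sham, 217, 315 and 366 in low, 289, 385 and 518 in medium, and 236, 378 and 463 in high. The ranges of all 4 groups overlapped, with low at the bottom and medium at the top of the order of group means. Drd2 (24318) stood at 263, 330.5 and 354 CPM in sham, 270, 305.5 and 394 in low, 305, 350.2 and 436 in medium, and 269, 357.5 and 546 in high. Its order of means was sham, low, medium and high, and each neighbouring pair of groups overlapped. In the 4 punches poor in projection neurons, Drd1 stood at 8.36 CPM (sham 17), 23.4 (low 20), 29.97 (high 13) and 165 (high 44), and Drd2 at 8.56, 13.3, 16.4 and 129 CPM.

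Adora2a (25369) encodes an adenosine receptor that opposes D2 signalling in indirect pathway neurons. It stood at 494, 628 and 657 CPM in sham, 518.5, 561 and 684 in low, 502, 654 and 1051 in medium, and 514, 669 and 1276 in high. The high ends of medium and high were 3 libraries, medium 8 (1051 CPM), medium 41 (988) and high 28 (1276), while all sham libraries stayed at or under 657 CPM. Chrm4 (25111), the M4 muscarinic receptor that restrains cyclic AMP in direct pathway neurons, varied least of the 8. It stood at 58.8, 88.8 and 101 CPM in sham, 81.3, 90.5 and 106 in low, 84.2, 88.2 and 109 in medium, and 81.5, 94.99 and 103 in high. Gpr6 (83683), an orphan receptor that is constitutively active and raises cyclic AMP, stood at 97.7, 135 and 164 CPM in sham, 97.1, 112 and 133 in low, 111, 129.7 and 241 in medium, and 109, 130.1 and 239 in high. Its highest libraries were medium 8 (241 CPM), high 28 (239) and medium 41 (216), the same 3 as for Adora2a. In these 26 libraries the neighbouring groups of Adora2a, Chrm4 and Gpr6 overlapped in every case.

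Of the peptide precursors, Penk (29237), which gives rise to enkephalins, stood at 1207, 1518 and 1905 CPM in sham, 1203, 1249 and 1407 in low, 1273, 1546 and 3531 in medium, and 1220, 1613 and 2656 in high. Tac1 (24806), the precursor of substance P, stood at 240, 307 and 368 CPM in sham, 203, 233 and 325 in low, 242, 333 and 708 in medium, and 194, 317 and 617 in high. Both genes had their maxima in medium 41 and high 28. Pdyn (29190), the precursor of dynorphins, stood at 194, 253 and 292 CPM in sham, 175, 197 and 218 in low, 150, 222 and 408 in medium, and 203, 246 and 280 in high. For Pdyn 5 of 5 low libraries stood below the sham median, yet the groups overlapped between 194 and 218 CPM. Medium 41 held the highest value of Pdyn (408 CPM), as it did of Tac1 (708) and Penk (3531).

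**Figure D1:**
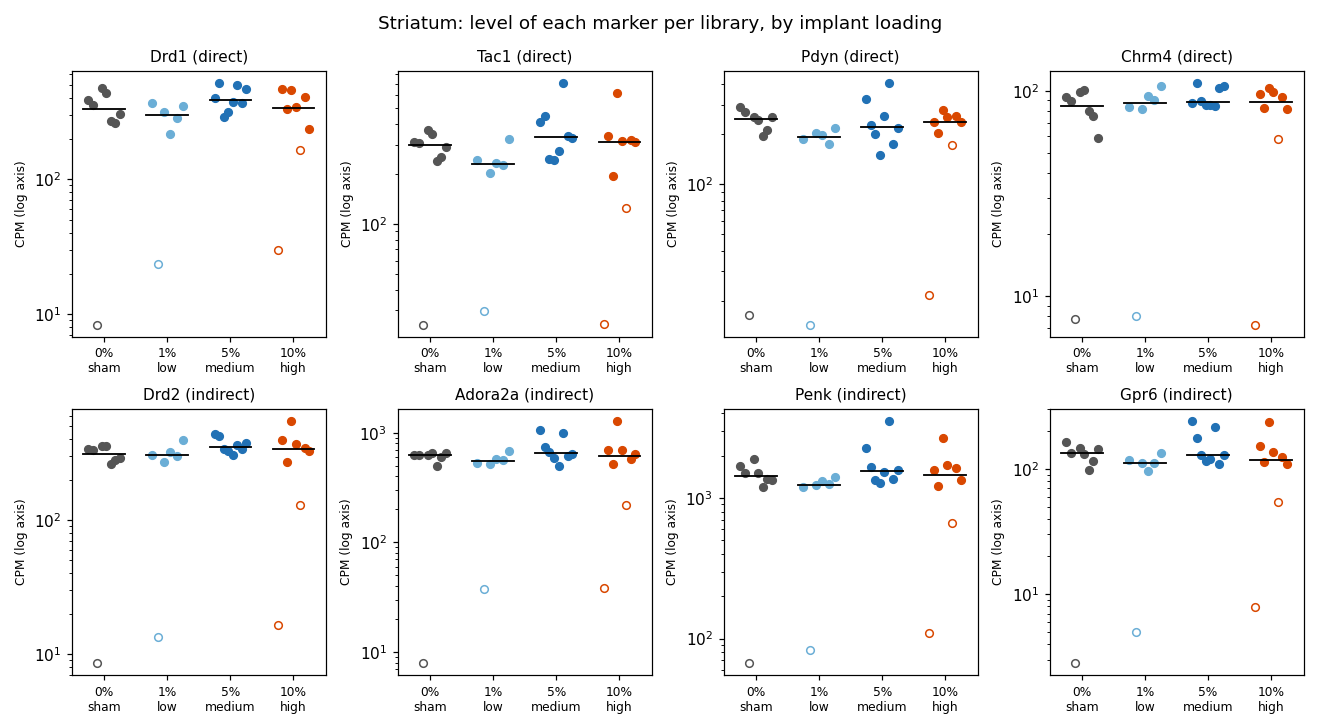
Level of the 8 markers in each of the 30 striatal libraries (CPM, log axis) by implant loading, with direct pathway genes above and indirect pathway genes below. Points are libraries, lines are group medians, and open points are the 4 punches poor in projection neurons; apart from these, the groups overlap for every gene.

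Whether loading changed the markers was asked for each loading against sham, with 12267 genes tested by edgeR's quasi-likelihood test. No marker passed at any loading with Benjamini-Hochberg adjustment, where 0% of all genes passed at each of the 3 loadings, and DESeq2 called 0 markers as well. At an unadjusted p under 0.05 edgeR called 0 of 8 markers at each loading, where 471 genes (3.84%), 453 genes (3.69%) and 141 genes (1.15%) passed at low, medium and high. The 3 comparisons share the sham libraries, so their values are not independent. Across the 4 groups together, 0 of 8 markers passed, against 3 genes of 12267 (0.0245%) with edgeR and 0 with DESeq2. All 8 markers passed the filter on low counts.

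At the medium loading all 8 markers stood above sham, where 54.8% of all genes did. The median log2 fold change of the markers was 0.39, against 0.02 over all genes. Values were, for example, 0.48 ± 0.45 (SE, n = 8 and 8) for Tac1, 0.45 ± 0.49 for Penk and 0.17 ± 0.43 for Pdyn. The adjusted p was 0.9999 for each by edgeR. Sham had 1 poor punch and medium had 0. Without the poor punches the median was 0.20 and 7 of 8 markers were above sham, where 55.1% of all genes were. Tac1 stood at 0.30 ± 0.22, Penk at 0.27 ± 0.19, Adora2a at 0.24 ± 0.17 and Pdyn at -0.01 ± 0.15 (n = 7 and 8). In these libraries the medium group medians of Pdyn (222 CPM against 253), Chrm4 (88.2 against 88.8) and Gpr6 (129.7 against 135) were below those of sham. The medium group medians of Drd1, Tac1, Drd2, Adora2a and Penk were above those of sham. No marker was called without the poor punches either, where 0% of 12227 genes passed at each loading by edgeR with adjustment. With the shared projection neuron mean as a covariate, 2 markers were above and 6 below sham (median -0.05).

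At the low loading 7 of 8 markers stood below sham, while 49.8% of all genes stood above it. The median of the markers was -0.27, against 0.00 over all genes. Pdyn at -0.39 ± 0.47 and Tac1 at -0.35 ± 0.49 were the lowest (n = 6 and 8, edgeR adjusted p = 0.913 and 0.915). Without the poor punches the errors fell and 6 of 8 were below (median -0.22), while 49.6% of all genes were above. Pdyn stood at -0.33 ± 0.17 (95% interval -0.69 to 0.03, edgeR adjusted p = 0.851, n = 5 and 7), Tac1 at -0.30 ± 0.24 and Penk at -0.24 ± 0.21. Drd2 (0.01 ± 0.14) and Chrm4 (0.09 ± 0.12) were the 2 above sham. At the high loading 5 markers were above and 3 below sham, where 56.7% of all genes were above. The median of the markers was 0.04, against 0.02 over all genes. Values ran from -0.07 ± 0.43 for Pdyn to 0.12 ± 0.53 for Adora2a. Without the poor punches 7 of 8 were above (median 0.15), where 56.1% of all genes were. Drd2 stood at 0.25 ± 0.13 (-0.02 to 0.52), Adora2a at 0.26 ± 0.18 (-0.11 to 0.63) and Pdyn at -0.01 ± 0.17 (n = 6 and 7). The highest upper bound over the 8 genes and 3 loadings was 1.52 log2 units with all libraries (Adora2a, medium) and 0.75 without the poor punches (Tac1, medium), and larger rises lie outside these intervals.

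**Figure D2:**
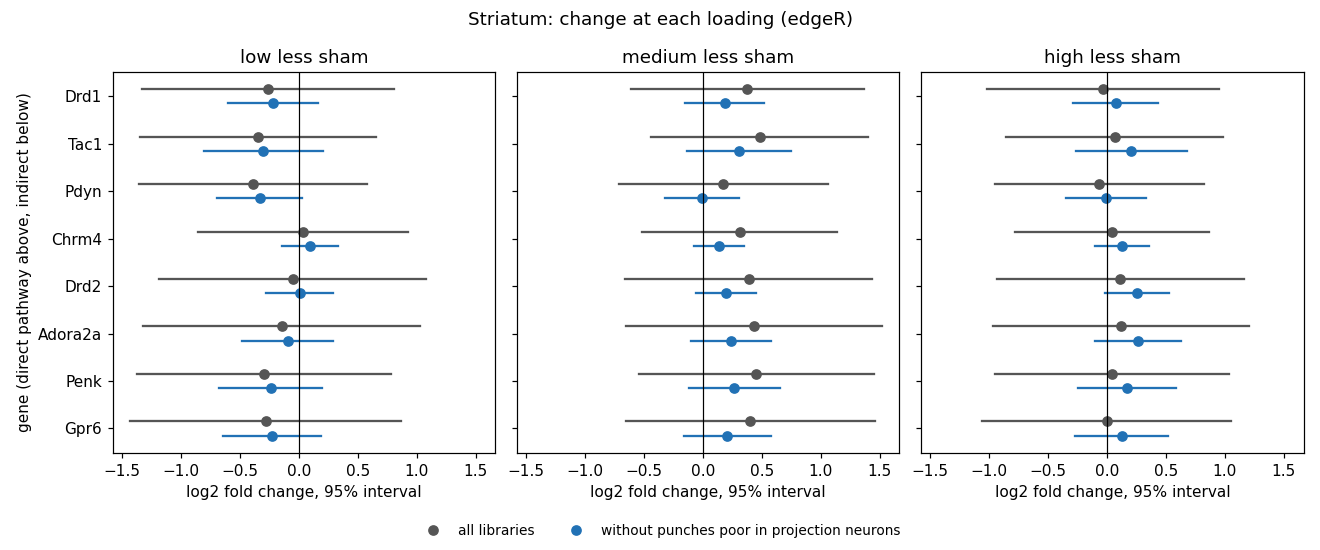
Log2 fold change against sham with its 95% interval (horizontal axis) for each marker (vertical axis) at low, medium and high loading, from the edgeR fit. Grey points use all 30 libraries and blue points the 26 without the poor punches; every interval includes 0, and the blue intervals are the narrower ones.

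Other genes of the pathways were examined as lists, which were chosen with earlier results of these data known. Of 8 further direct pathway genes 6 were tested, and 0 of 6, 4 of 6 and 1 of 6 stood above sham at low, medium and high (medians -0.17, 0.10 and -0.11). The highest of these was the acid-sensing channel gene Asic4 at medium (0.41 ± 0.42), and the lowest was Slc35d3, a transporter gene, at low (-0.23 ± 0.34). Of 7 further indirect pathway genes all 7 were tested, and 4, 6 and 2 stood above sham (medians 0.01, 0.07 and -0.09), with the orphan receptor Gpr52 between -0.18 ± 0.44 at low and 0.49 ± 0.40 at medium. The 15 shared projection neuron genes stood above sham in 5, 15 and 9 cases (medians -0.11, 0.40 and 0.01). None of these 28 genes passed at any loading. In the 26 libraries the medians at medium were 0.06, 0.09 and 0.21 for the 3 lists, with the sodium channel subunit Scn4b at 0.35 ± 0.17. The further direct and indirect genes still summed to 153 and 158 CPM in sham 17, against striatal medians of 383 and 303 CPM. In the cerebellum, with 5 of the direct genes found, the medians of these sums were 214 and 165 CPM. These 2 lists thus follow projection neurons less closely than the 8 markers do.

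The balance of the pathways was described in each library as the mean log2 CPM of the 4 direct genes less that of the 4 indirect genes. It carries no test, since it is a score over the 8 genes. In the 26 libraries it was -1.04 ± 0.11 in sham (SD, n = 7), -1.09 ± 0.06 in low (n = 5), -1.10 ± 0.18 in medium (n = 8) and -1.11 ± 0.18 in high (n = 6). These means differ by less than the SD within medium or high. With all libraries the means were -0.88 ± 0.46, -0.96 ± 0.31, -1.10 ± 0.18 and -0.98 ± 0.29, and sham 17 stood alone on the other side of 0 at 0.23. The ratio of Drd1 to Drd2 CPM in the 26 libraries had a median of 1.09 and ran from 0.678 in low to 1.39 in medium, and its mean was 1.11 ± 0.13 in sham, 0.97 ± 0.21 in low, 1.11 ± 0.19 in medium and 1.01 ± 0.21 in high. The ratio of Tac1 to Penk was steadier, at 0.201 ± 0.017, 0.191 ± 0.026, 0.207 ± 0.033 and 0.202 ± 0.029.

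The balance moved with ribosomal protein transcripts across libraries. The lowest balances were those of high 28 (-1.44) and medium 8 (-1.44), whose ribosomal means of 8.37 and 7.81 log2 CPM compare with a striatal median of 6.95. Medium 41 (7.96) and sham 49 (7.88) had ribosomal means above that of medium 8, with balances of -1.12 and -1.21. Over the 26 libraries, with group means removed, Pearson's r between balance and ribosomal mean was -0.83 and Spearman's rho -0.87, and r was -0.84 without medium 41 and high 28, the 2 libraries farthest from the median of the ribosomal mean. Of single markers, Adora2a rose with the ribosomal mean (r = 0.72, adjusted permutation p = 0.00032; rho = 0.50, adjusted p = 0.0289; r = 0.50 without those 2), while Chrm4 had r = -0.43 (adjusted p = 0.0559; rho = -0.42, adjusted p = 0.0662; r = -0.62 without those 2). Gpr6 passed by r alone (r = 0.53, adjusted p = 0.0171; rho = 0.27, adjusted p = 0.245), and its r was 0.24 without those 2. For Tac1 (r = 0.45, adjusted p = 0.0483; rho = 0.14) and Penk (r = 0.51, adjusted p = 0.0250; rho = 0.24) the relation rested on those 2 libraries, since r without them was -0.01 and 0.08. Drd1 had r = -0.20 (adjusted p = 0.359; rho = -0.32), and -0.55 without those 2. Pdyn, also a direct pathway gene, had r = 0.42 (adjusted permutation p = 0.0559, rho = 0.24), and 0.20 without those 2. Drd2 had r = 0.28 (adjusted permutation p = 0.204, rho = 0.04), and -0.02 without those 2. The adjustment was over 16 relations, 8 markers by 2 library means. What the ribosomal mean stands for in these libraries was not tested.

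**Figure D3:**
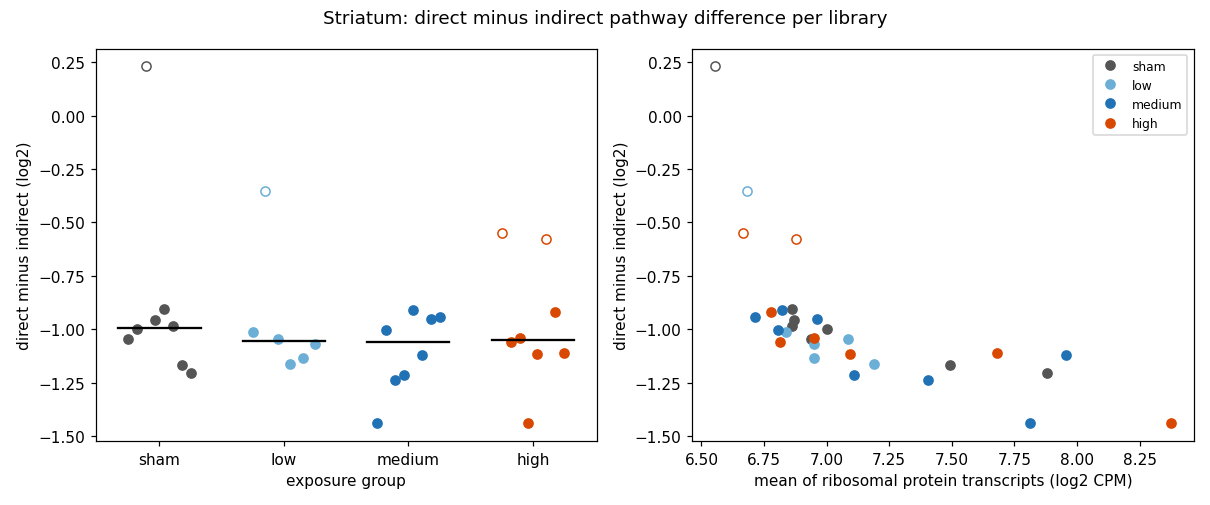
Direct minus indirect difference of mean log2 CPM in each striatal library, by exposure group on the left with group medians as lines, and against the mean of ribosomal protein transcripts (log2 CPM) on the right. Open points are the 4 poor punches; among the other 26 the difference lies lower where the ribosomal mean is higher.

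How the markers varied with each other was taken over the same 26 libraries with group means removed, for all 28 pairs. Within the indirect pathway r ran from 0.65 to 0.90 (median 0.82), and all 6 pairs passed with Benjamini-Hochberg adjustment of permutation p. The closest pair was Adora2a and Gpr6 (r = 0.90, rho = 0.85, adjusted p = 3.11e-05 for r and 4.67e-05 for rho; r = 0.82 without medium 8 and high 28). The raw permutation p of this pair, 1e-05, is the smallest that the permutations can give. Within the direct pathway r ran from 0.04 to 0.72 (median 0.50), and 4 of 6 pairs passed by r and 5 by rho. Tac1 and Pdyn were its closest pair (r = 0.72, rho = 0.69, adjusted p = 0.000233 and 0.000262; r = 0.60 without medium 41 and high 28), and Pdyn and Chrm4 had r = 0.04 and rho = 0.20. Pairs across the pathways reached as high as pairs within them: r ran from 0.18 to 0.89 (median 0.62), and 12 of 16 passed by r and 14 by rho. The highest of these joined peptide precursors, Tac1 with Penk (r = 0.89, rho = 0.82, adjusted p = 3.11e-05 and 5.09e-05; r = 0.78 without medium 41 and high 28) and Pdyn with Penk (r = 0.85, rho = 0.83, adjusted p = 3.11e-05 and 5.09e-05; r = 0.76 without medium 26 and medium 41). Whether the within-pathway and across-pathway values differ was not tested. How many pairs of other genes would pass was not computed, so the counts do not set these 8 genes apart.

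**Figure D4:**
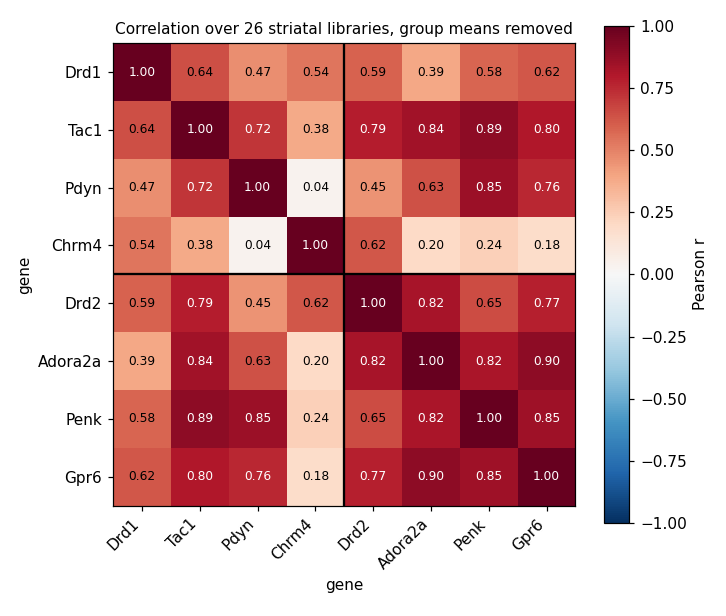
Pearson r between each pair of markers (rows and columns) over 26 striatal libraries with group means removed; the black lines part direct from indirect pathway genes. Chrm4 has the palest row, with 0.04 against Pdyn, and the indirect block runs from 0.65 to 0.90.

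The shared projection neuron mean tracked some markers more than others. It correlated with Chrm4 (r = 0.82, rho = 0.86), Drd1 (r = 0.80, rho = 0.79) and Drd2 (r = 0.65, rho = 0.76), with adjusted permutation p of 8e-05, 8e-05 and 0.00128 for r and 8e-05, 0.000107 and 8e-05 for rho. Without sham 48 and high 59 these r were 0.84, 0.74 and 0.65. For the other 5 markers r was 0.18 (Pdyn) to 0.41 (Tac1), with adjusted p of 0.0559 or more for r; by rho Tac1 (0.60, adjusted p = 0.00568) and Gpr6 (0.49, adjusted p = 0.0289) passed. Among 9376 genes with a mean of at least 10 CPM, the gene with the closest pattern to each marker over the 26 libraries was Plk2 for Drd1 (r = 0.94), Jakmip1 for Tac1 (0.92), Actr3 for Pdyn (0.87), Scn4b for Chrm4 (0.85), Kcnip2 for Drd2 (0.89), Hpca for Adora2a (0.98), Rars1 for Penk (0.90) and Syndig1 for Gpr6 (0.94). Scn4b is a sodium channel subunit and is itself on the shared projection neuron list, and Kcnip2 is a potassium channel partner. These are the highest of many values and carry no test.

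The region comparison asked how far the 8 genes mark the striatum. In sham rats every marker was higher in the striatum (edgeR, n = 8 and 7, 12616 genes tested), where 43% of all genes were called in either direction and 20.9% were called higher. A marker that passed the filter on low counts only through the striatum had to differ, so the number called is no support. The log2 difference was 9.83 ± 1.18 (SE) for Tac1, 9.07 ± 1.01 for Gpr6, 8.996 ± 1.07 for Pdyn, 7.35 ± 0.82 for Drd1, 7.11 ± 0.87 for Chrm4, 6.96 ± 0.69 for Drd2, 6.28 ± 0.62 for Adora2a and 4.25 ± 0.51 for Penk. These values include sham 17. The median over the 8 markers was 7.23, and 7.41 without the poor punches. Penk had the smallest difference, and it stood at 68.5 ± 16.8 CPM in sham cerebellum (SD, n = 7), from 47.2 to 89.6. Gpr6 was at 0 reads in 21 of 31 cerebellar libraries, where 3 reads, the upper limit that a count of 0 allows, stand for 0.306 to 0.579 CPM.

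In the cerebellum 5 of the 8 markers passed the filter on low counts (Drd1, Tac1, Drd2, Adora2a and Penk), and Pdyn, Chrm4 and Gpr6 did not. None of the 5 differed among the 4 groups by edgeR with adjustment, where 0% of 11946 genes passed, and DESeq2 called 47 genes. DESeq2 did not call Penk and gave the other 4 no adjusted p. At an unadjusted p under 0.05 edgeR called 2 of the 5, Tac1 and Drd2 (adjusted p = 0.388 for both), where 1236 genes (10.3%) passed. With no filter on low counts edgeR called 5 of 8 markers at this unadjusted p, where 1462 of 14129 genes passed. With adjustment 0 of 8 passed in that run. Tac1 was at most 0.851 CPM in the 7 sham libraries and stood at 41.3 CPM in low 22 and 19.4 CPM in low 6, with a median of 0.216 CPM over the 8 low libraries. Drd2 stood at 20.9 CPM in low 22 and 11.7 CPM in low 6 against 1.49 to 3.65 CPM in sham. The same 2 libraries held the highest Penk of their group, 220.4 and 132 CPM.

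Markers of other cells moved with those libraries. In low 22 the granule cell receptor subunit Gabra6 stood at 1.71 CPM against a cerebellar median of 820.2 CPM, the myelin gene Mbp at 28130 CPM against 3335, the acetylcholine enzyme Chat at 19.2 CPM against a median of 0, and Slc17a6 at 91.5 CPM against 0.936. In low 6 Slc17a6 stood at 68.9 CPM and the thalamic transcription factor Tcf7l2 at 88.1 CPM against 6.85. Other genes of the septum, pallidum and thalamus list went the other way. In low 22 Zic1 stood at 28.3 CPM against 602, Calb2 at 191 against 625 and Tcf7l2 at 4.90, and in low 6 Zic1 stood at 339. The list summed to 320 CPM in low 22 and 1167 CPM in low 6 against a cerebellar median of 1243 CPM. By its mean, low 6 was the highest of the region at 5.54 log2 CPM. Low 22 stood at 3.81 against a cerebellar median of 3.33. Mean and sum of this list thus differ for both libraries. Medium 40 held the highest cerebellar Chrm4 (23.2 CPM), Pdyn (19.6), Drd1 (13.8) and Gpr6 (8.00), with Gabra6 at 195 CPM. Over the 5 granule cell genes the summed level was 83.6 to 4228 CPM in low, 831 to 3914 in medium, 2164 to 3884 in sham and 1996 to 3690 in high. These 3 libraries were picked out after their marker values, those of the 8 genes included, had been seen. Without low 6, low 22 and medium 40, Tac1 no longer passed the filter on low counts, and Drd1, Drd2, Adora2a and Penk had adjusted p = 0.759, 0.910, 0.491 and 0.441. The part of other cells in the marker levels was not tested further.

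Within the high group, Adora2a and Penk were high in 3 cerebellar libraries, which also had the highest ribosomal means of the region. Adora2a stood at 15.6 CPM in high 28, 20.3 in high 43 and 23.9 in high 59, and Penk at 164, 122 and 144 CPM, while the other 5 high libraries had Adora2a of 2.87 to 6.94 CPM. The ribosomal mean was 9.41, 10.16 and 9.06 log2 CPM in these 3 against a cerebellar median of 6.47, and their TMM factors were 0.758, 0.546 and 0.821. The libraries next in ribosomal mean were of other groups, sham 48 (8.56 log2 CPM) and medium 24 (8.49), with Adora2a at 11.8 and 14.4 CPM and Penk at 89.6 and 108.5 CPM. All 4 listed Purkinje cell genes were detected in the 3 high libraries, and their mean of 9.41, 10.49 and 9.47 log2 CPM was above the cerebellar median of 9.58 in high 43 alone. Their summed level was 5556 CPM in high 28, 14985 in high 43 and 4969 in high 59 against a median of 5369 CPM. Mean and sum thus differ for high 28. The part of the ribosomal mean in the Adora2a and Penk values was not tested.

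**Figure D5:**
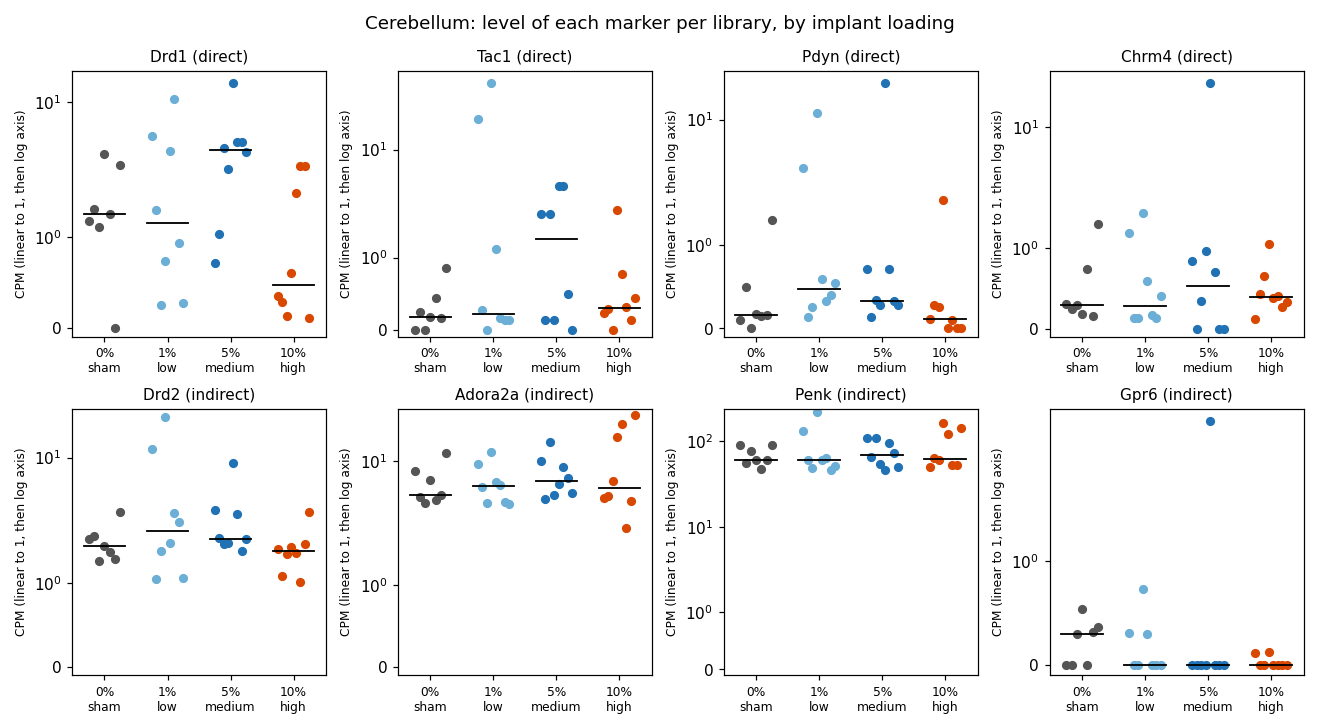
Level of the 8 markers in each of the 31 cerebellar libraries (CPM, linear to 1 and log above) by implant loading, with group medians as lines. Most libraries lie near 0 apart from Penk and Adora2a, and low 22, low 6 and medium 40 give the highest points of Tac1, Drd2, Pdyn, Chrm4, Drd1 and Gpr6.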

How the data were processed

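Male rat striatum and cerebellum punches were measured by RNA sequencing. The authors deposited whole-number read counts per NCBI gene for each region. The submitters' processing notes name FastQC, HISAT2 and the rn6 genome build; how reads were counted, and on which annotation, is not given in the sources used here, and the labels' protocols name poly(A) capture or ribosomal RNA removal without saying which library had which. Gene symbols came from the RefSeq GRCr8 table, which matched 14163 striatal and 14063 cerebellar identifiers. No per-sample column was left unmapped.

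Here, edgeR 4.0.16 (R 4.3.3) filtered low counts (filterByExpr), scaled libraries by TMM and ran the quasi-likelihood test with Benjamini-Hochberg adjustment over all genes and a threshold of 0.05. Log2 CPM used a prior count of 2. DESeq2 1.42.0 was an alternative. A striatal library was called poor in projection neurons when its list mean lay more than 1 log2 unit below the median. Alternatives were size factors, no filter, runs of 15 animal numbers as a term, library means as covariates and leaving out libraries; the covariates in the 26 libraries and the reduced cerebellar set were chosen after seeing the data. Permutation p used 100000 resamples of values less group means, with no allowance for the means removed. The edgeR tests and the search for the closest pattern were also run on simulated data with planted signals. These simulated data held no cluster of poor punches, and the share of planted changes that edgeR recovered is not reported here. The edgeR intervals cover the spread between animals as well as counting error, while the upper limit for a count of 0 covers counting error alone.

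The 8 genes and the gene lists were chosen with earlier results of these data known. Named genes are the 8, the lowest or highest member of a list, and the genes with the closest or most opposite pattern; single marker genes of odd libraries were chosen after their values were seen. Some genes that these rules name are not reported here. Animal numbers in the labels pair the regions. Over 29 pairs and 8582 genes, deviations from group means had a median correlation of 0.53 for the same number and 0.03 for other numbers of the same group. For the same number the correlation ran from -0.42 to 0.91 and was above 0.1 in 23 of the 29 pairs. Of the pairs, 7 are sham. P-values measure the spread between animals, whose cohort is not given.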

Additional observations from a re-analysis of the deposited data

Results flagged for a closer look

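Within groups of 4 to 10 libraries, the highest or lowest library was set against the others by its gap to the nearest value over the group's range (log2 CPM, Dixon's 95% limit). Of 64 sets of marker, region and group, 28 gave a library past the limit, 22 in the striatum and 6 in the cerebellum; chance gives about 1 in 20, and the markers of a library are not independent of each other.

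The sham 17 striatal library was far below its group for all 8 markers, at 8.36 CPM of Drd1, 24.6 of Tac1, 16.3 of Pdyn, 7.78 of Chrm4, 8.56 of Drd2, 7.97 of Adora2a, 66.998 of Penk and 2.82 of Gpr6. The low 20 striatal library was far below its group for all 8, at 23.4 CPM of Drd1, 29.9 of Tac1, 14.3 of Pdyn, 7.98 of Chrm4, 13.3 of Drd2, 37.8 of Adora2a, 82.5 of Penk and 5.03 of Gpr6. The high 13 striatal library was far below its group for 6 markers, at 29.97 CPM of Drd1, 21.7 of Pdyn, 7.28 of Chrm4, 16.4 of Drd2, 109 of Penk and 7.89 of Gpr6.

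In the cerebellum, medium 40 was far above its group for Pdyn (19.6 CPM), Chrm4 (23.2 CPM), Drd2 (9.11 CPM) and Gpr6 (8.00 CPM), the last in a group whose other 7 libraries had 0 reads. High 28 was far above its group for Pdyn (2.29 CPM). Sham 34 was past the limit below its group for Drd1, at 0 CPM, which allows up to 3 reads. The other sham libraries held 8 to 28 reads of Drd1. This flag rests on few reads, and the log2 value at 0 reads depends on the prior count.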

How the results depend on the processing

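The number of markers called stayed at 0 of 8 for each striatal comparison and at 0 for the cerebellum under every alternative run, and at 8 of 8 for the regions. In the cerebellum DESeq2 gave Drd1, Tac1, Drd2 and Adora2a no adjusted p, so it could not call them. With the animal as a replicate block (paired regions) 8 of 8 were called as well, and the paired fit changed no call. Signs of the small striatal log2 fold changes did turn, and the cause was not tested. Leaving out the poor punches turned Drd2 to 0.0071 at low, Pdyn to -0.011 at medium, and Drd1 to 0.075 and Gpr6 to 0.13 at high. With the projection neuron mean as a covariate the values that turned were Adora2a (0.0026) at low, Drd1 (-0.013), Pdyn (-0.23), Chrm4 (-0.11), Drd2 (-0.12), Adora2a (-0.010) and Gpr6 (-0.078) at medium, and Drd1 (0.064), Tac1 (-0.047) and Penk (-0.0062) at high. With both choices they were Drd2 (0.0021) at low, Drd1 (-0.044), Pdyn (-0.050) and Chrm4 (-0.0024) at medium, and Gpr6 (0.042) at high. With the poor punches left out and the ribosomal mean as a covariate they were Drd2 (0.023) at low, Pdyn (-0.058) at medium, and Drd1 (0.10) and Gpr6 (0.029) at high. With runs of animal numbers as a term Drd1 (0.0043) and Gpr6 (0.063) turned at high.

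Leaving out 1 library at a time gave, at low, Chrm4 -0.14 to 0.26, Drd2 -0.24 to 0.19 and Adora2a -0.34 to 0.091, the ends being without sham 17 and without low 20. At medium it gave Pdyn -0.0071 (without sham 17) to 0.25 (without medium 26). At high it gave Drd1 -0.22 to 0.14, Pdyn -0.25 to 0.11, Chrm4 -0.13 to 0.22 and Drd2 -0.074 to 0.30, between leaving out sham 17 and high 13, and Tac1 -0.21 to 0.24, Adora2a -0.16 to 0.30, Penk -0.17 to 0.22 and Gpr6 -0.24 to 0.18, between leaving out high 28 and high 13. The direct minus indirect differences from sham moved by less than the pooled SD within groups (0.33 log2) under each alternative. That SD takes in the poor punches and is wide for this reason. Without them the SD was 0.11 in sham, 0.06 in low, 0.18 in medium and 0.18 in high. Leaving out sham 17 alone turned the difference from below 0 to 0.075 at low and to 0.061 at high, and took that at medium from -0.22 to -0.065. In the cerebellum Tac1, Pdyn, Chrm4 and Gpr6 rest on few reads in most libraries, which limits what the depth can show.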

Other observations

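Over the 26 striatal libraries genes among those whose level moved most with the direct minus indirect difference were Mphosph8, Brd1, Sfpq and Kiaa0408L (r = 0.89 to 0.90), and those that moved most against it were Cnpy2, Gstz1, Morn4, Spata33 and Dbndd2 (r = -0.86 to -0.87). Sfpq is a nuclear splicing factor and Gstz1 an enzyme of tyrosine breakdown. These are among the extremes of 9376 genes, group means removed, and carry no test.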
